A study of Mus musculus with 24 samples.

Results

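The Gimap genes encode the GTPases of immunity-associated proteins, and 8 of them (Gimap1, Gimap3, Gimap4, Gimap5, Gimap6, Gimap7, Gimap8 and Gimap9) were followed here across 8 groups of sorted mouse lymphoid cells. The array annotation names 34844 genes. All probes, other than control spots, that it assigns to 1 of these 8 were taken, which gave 10 of 55681 probes. Gimap4 had 3 probes and each other gene had 1. The rule for picking probes uses gene names and no measured value. Gimap4 spread widest between thymocyte stages: its probe nearest the transcript start read 10.88 times as high in CD4 single-positive as in double-positive thymocytes, and its other probes showed smaller differences. None of the 10 probes passed limma's test, adjusted over all probes, in any of 12 comparisons, and 19 of the 120 results had an unadjusted p below 0.05, against 7.55% of the results of all probes.

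The study asked how components of the niche shape blood progenitors. RNA of 24 cell samples was hybridised, each to 1 single-colour Agilent array, after capture of polyadenylated RNA and PCR amplification. Transgenic thymus of the Foxn1-deficient genotype (-/-) gave the double-positive (DP) cells called tg DP (n = 4), which carry both CD4 and CD8, and the B cells without surface IgM called tg B (n = 2). The labels used here name no transgene, promoter or age, and do not say whether both came from 1 line. Thymus heterozygous for Foxn1 (+/-), called wt, gave 4 groups with n = 3 each: DN3 cells, which are at the third stage without CD4 or CD8, DP cells, and single-positive cells with CD4 alone (SP4) or CD8 alone (SP8). IgM-positive and IgM-negative B cells (n = 3 each) came from wild-type fetal liver. Foxn1 is the transcription factor of thymic epithelium, so every thymic sample, wt included, carried at least 1 mutant allele. The titles set the SP4 group, since the cell type entry of those samples mentions SP8 as well. Title numbers 3 and 3A in wt DP, and 6, 6A and 6B in tg DP, share a number, and whether samples of a group are separate animals is not in the labels. The p-values therefore cover sample-to-sample spread alone, and that spread may be technical.

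Gimap proteins bind GTP through a domain of the AIG1 type, and several of them sit on the membranes of intracellular organelles. The genes lie next to each other on mouse chromosome 6 and are best known from lymphocytes, whose survival several of them affect. In mice, loss of Gimap1 or of Gimap5 leaves few mature lymphocytes. In the mouse thymus, RNA of several members, Gimap4 among them, is known to be higher after positive selection, the step between DP and single-positive cells.

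The 10 probes lay between positions 48610775 and 48714522 of chromosome 6 in build mm9, as the array annotation gives them. From the Gimap8 probe, the others followed at 17.06 kb (Gimap9), 29.98 to 31.04 kb (Gimap4), 40.89 kb (Gimap6), 63.50 kb (Gimap7), 82.63 kb (Gimap1), 92.73 kb (Gimap5) and 103.69 kb (Gimap3). Gimap3 and Gimap6 are on the minus strand and the others on the plus strand. Their place in exons or untranslated regions was not analysed here. Every probe is 60 bases long. The probes of the 5 genes with an unadjusted p below 0.05 in any comparison are shown from 5′ to 3′ as the array annotation prints them, with no part in capitals because no single part carried the difference.

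Gimap4 probe A_55_P1976387, chr6:48640752-48640811, plus strand, from base 500 of its transcript: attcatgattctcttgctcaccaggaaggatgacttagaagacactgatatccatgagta
Gimap4 probe A_55_P1976376, chr6:48641312-48641371, plus strand, from base 1060: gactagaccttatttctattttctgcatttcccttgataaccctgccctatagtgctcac
Gimap4 probe A_55_P2147831, chr6:48641817-48641876, plus strand, from base 1565: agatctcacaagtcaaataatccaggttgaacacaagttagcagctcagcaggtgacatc
Gimap1 probe A_51_P507509, chr6:48693409-48693468, plus strand: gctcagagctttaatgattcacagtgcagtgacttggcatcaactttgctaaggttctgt
Gimap8 probe A_55_P2074085, chr6:48610775-48610834, plus strand: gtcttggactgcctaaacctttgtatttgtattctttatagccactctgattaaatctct
Gimap3 probe A_55_P2003221, chr6:48714463-48714522, minus strand: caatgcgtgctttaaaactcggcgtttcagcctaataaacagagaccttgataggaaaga
Gimap5 probe A_51_P176365, chr6:48703501-48703560, plus strand: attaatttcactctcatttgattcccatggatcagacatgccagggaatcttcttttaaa

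The 3 Gimap4 probes read successive stretches of 1 gene without overlapping, so they are 3 readings of the same RNA samples and not replicates. Whether a probe also binds RNA of another Gimap gene was not tested. Placed without gaps over at least 40 bases, probe A_55_P1976387 was most like that of Gimap9, with 27 of 45 bases equal (60%), against a median of 39.6% over pairs of probes of different genes. Levels below are log2 signals scaled so that each array's 75th percentile is 0, given with the SD over arrays. Differences are between such levels, with the SE from 1 limma fit of the 24 arrays. Levels of different probes are not set against each other, since probes differ in how they bind.

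Every member probe was well above background on all 24 arrays. That flag said little by itself: between 87.6% and 96.7% of all probes had it on 23 arrays, and 80.6% on tg B array 23, whose median signal of 125 lay below the 208 to 314 of the other 23. The T lineage marker list (11 of 12 genes measured) averaged -0.31 to 0.79 on the 16 thymocyte arrays and -0.73 to -0.34 on the 8 B cell arrays, without overlap but with a narrow gap. Its genes did not all follow. Group means of Tcf7 were -2.38 to 0.79 in thymocytes and -5.32 to -4.23 in B cells. Those of Cd3e went the other way, with 0.46 to 0.59 in thymocytes and 0.63 to 0.84 in B cells. The B lineage list (9 of 10 genes measured) did not separate thymocyte from B cell arrays. It averaged -0.66 in tg B, -0.43 in IgM-positive and 0.10 in IgM-negative fetal liver B cells. Thymocyte groups averaged -0.87 in SP4, -0.67 in SP8, -0.51 in DN3, -0.51 in tg DP and -0.49 in wt DP. By this list, tg B cells lay within the range of the thymocyte groups. The coreceptors did not separate SP4 from SP8 as labelled by all their probes. One Cd8a probe was lower in SP4 (-4.35 ± 1.15) than in SP8 (-0.43 ± 0.28), but the other read -0.95 and -0.96, the Cd8b1 probe was higher in SP4 (-2.14 ± 0.54) than in SP8 (-3.56 ± 0.65), and the Cd4 probes read 3.57 in SP4 against 3.39 in SP8, and 2.26 in SP4 against 2.35 in SP8 (SD, n = 3 each). The brighter Cd4 probe also read 3.47 in DN3 and 3.79 in tg B cells. The Cd8b1 probe read -3.58 in wt DP and -2.37 in IgM-negative fetal liver B cells. Probes that did not follow CD4 or CD8 in those groups cannot show whether the SP4 and SP8 labels hold. Myeloid markers (6 genes) averaged 1.57 in SP4, 1.55 in SP8 and 1.62 in wt DP. Arrays fell on 4 slides, and SP4 and SP8 shared none with wt DP.

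**Figure D1:**
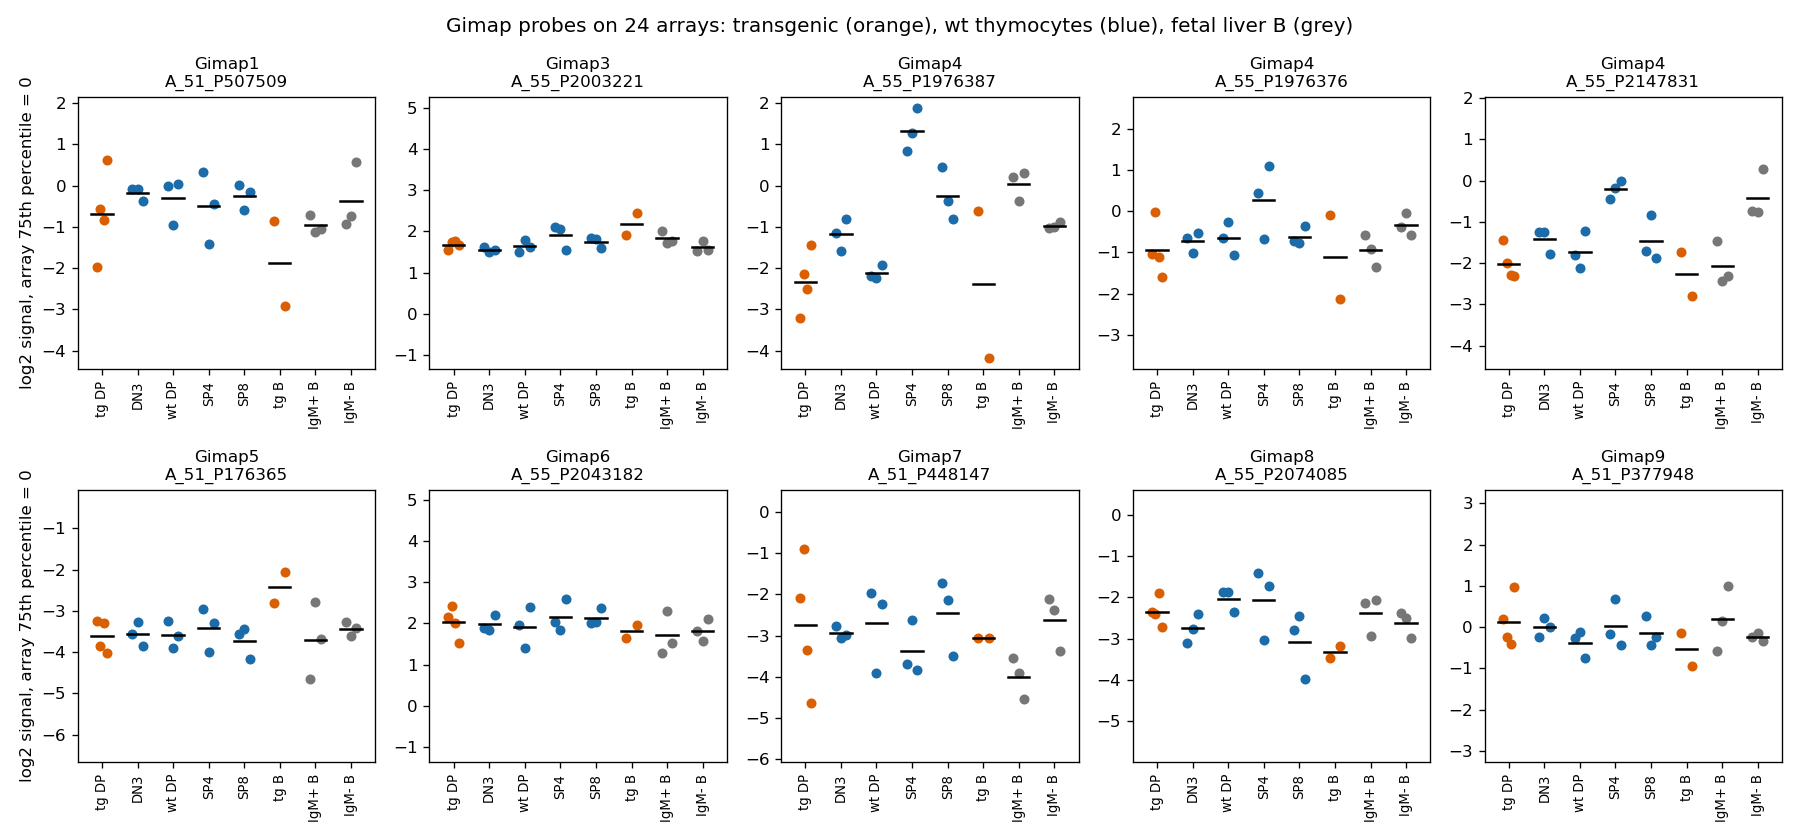
Level of each Gimap probe on each of the 24 arrays by group (points), with group means (black lines). The vertical axis is log2 signal relative to the array's 75th percentile, spanning the same number of log2 units in every panel. Probe A_55_P1976387 of Gimap4 spreads widest between groups, with SP4 at 0.83 to 1.89 and wt DP at -2.23 to -1.92, while the groups of Gimap3 and Gimap6 lie close together.

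Gimap4, a member studied for its part in the death of T cells, read highest in SP4 cells with all 3 probes. Probe A_55_P1976387 had levels of -1.14, -1.58 and -0.80 in DN3 cells, -2.20, -2.23 and -1.92 in wt DP cells, 0.83, 1.27 and 1.89 in SP4 cells, and 0.44, -0.37 and -0.81 in SP8 cells. All 6 single-positive arrays were above all 3 wt DP arrays, all 3 SP4 arrays were above all 3 SP8 arrays, and all 3 wt DP arrays were below all 3 DN3 arrays. Whether more cells of a sample held the RNA or each cell held more cannot be told apart in such bulk signals.

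For that probe, SP4 cells averaged 1.33 ± 0.53 and DP cells -2.11 ± 0.17 (SD, n = 3 each), a difference of 3.44 ± 0.62 (SE), with a 95% interval of 2.14 to 4.74. Its unadjusted p in limma's test was 2.85e-05, the 14th smallest of all probes, and the adjusted p was 0.102, above the threshold of 0.05. None of the 52984 probes tested was called in this comparison (0%), while 6.42% had an unadjusted p below 0.05, against 2 of the 10 Gimap probes. The same difference was called under 6 of 19 other settings, among them median scaling (adjusted p = 0.0474), quantile scaling (adjusted p = 0.0282) and the authors' own log2 values (adjusted p = 0.0286). The last 2 gave nearly the same difference (3.5594 and 3.5591), so they are not separate results. With the slide as a fixed block it was 4.00 ± 0.94 and not called (adjusted p = 0.795). Because SP4 and wt DP share no slide, no within-slide value exists for it. A further setting kept only each gene's brightest probe, which for Gimap4 is A_55_P1976376. It therefore gave no value for A_55_P1976387 and is not among the 19. Under it no probe of 33592 was called, and the best Gimap probe ranked 2854th by p in limma's test.

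**Figure D2:**
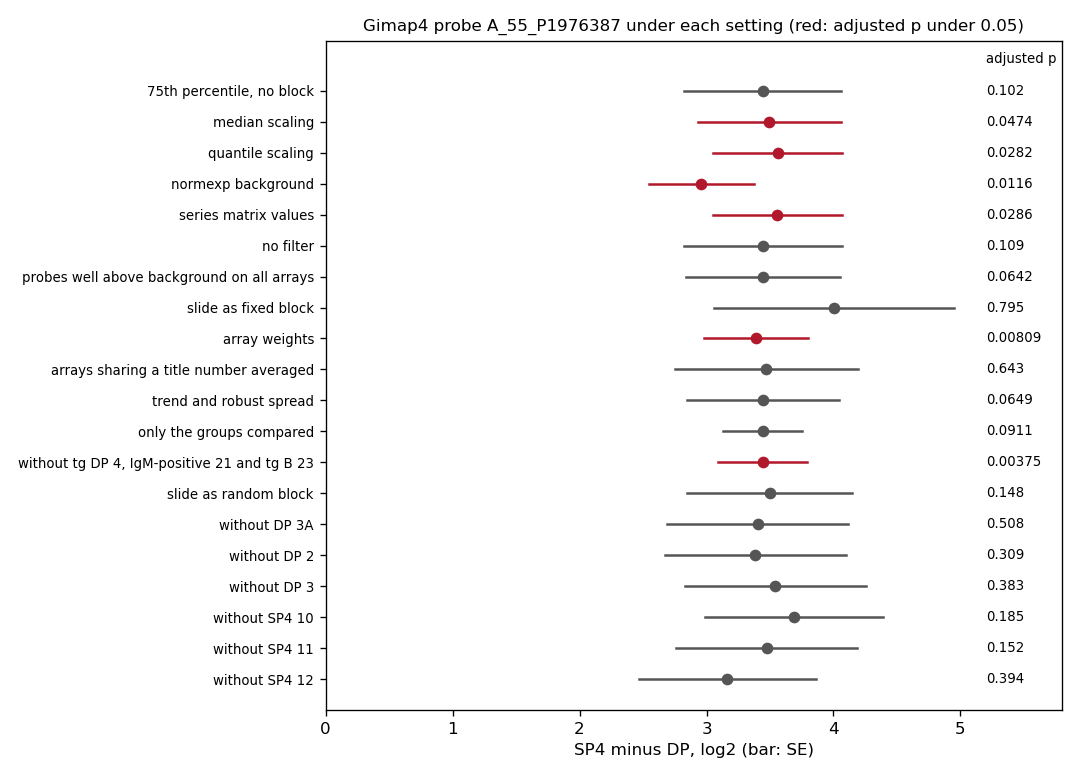
Difference between SP4 and wt DP for Gimap4 probe A_55_P1976387, on the log2 scale with SE bars, under the reported setting (top) and each alternative, with the adjusted p of limma's test at the right and settings with adjusted p under 0.05 in red. All values lie between 2.96 and 4.00, while the adjusted p runs between 0.00375 and 0.795.

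The other probes of Gimap4 pointed the same way between SP4 and DP with smaller sizes. Probe A_55_P2147831 had levels of -0.46, -0.18 and -0.0043 in SP4 cells, against -1.81, -2.13 and -1.23 in DP cells. These groups did not overlap, and the difference was 1.51 ± 0.39 with a limma adjusted p of 0.408. Probe A_55_P1976376 had levels of 0.43, -0.68 and 1.09 in SP4 cells, against -0.64, -0.26 and -1.06 in DP cells, and here 1 SP4 array lay inside the range of DP. Its difference was 0.94 with a 95% interval of -0.08 to 1.95. Of all probes, 5.35% were higher in SP4 than in DP without overlap, as 2 of the 10 Gimap probes were.

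SP8 cells, set against the same DP arrays, stood apart from them at 1 probe of Gimap4. Probe A_55_P1976387 averaged -0.25 ± 0.63 in SP8 cells and -2.11 ± 0.17 in DP cells, a difference of 1.87 (95% interval 0.57 to 3.17, limma unadjusted p = 0.00744, adjusted p = 1). Probes A_55_P1976376 and A_55_P2147831 differed by 0.04 (-0.98 to 1.06) and 0.25 (-0.56 to 1.06). No probe of the array was called between SP8 and DP (0%), and 2.29% had an unadjusted p below 0.05, against 2 of 10 Gimap probes.

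The 2 single-positive groups were set against each other directly. All 3 Gimap4 probes were higher on average in SP4 than in SP8, by 1.58 ± 0.62, 0.90 ± 0.48 and 1.26 ± 0.39 for A_55_P1976387, A_55_P1976376 and A_55_P2147831, and the first and last of these did not overlap between the groups. Their adjusted p-values were 0.871, 0.975 and 0.733 in limma's test. On slide 3, which held 2 SP4 and all 3 SP8 arrays, the same differences were 1.61, 1.38 and 1.24. No probe was called (0%), 5.18% of all probes and 3 of 10 Gimap probes had an unadjusted p below 0.05, and 3.88% of all probes were higher in SP4 without overlap.

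With the SP4 and SP8 groups averaged, probe A_55_P1976387 of Gimap4 was 2.66 ± 0.54 above DP (95% interval 1.53 to 3.78, limma adjusted p = 0.377). It was the only Gimap probe whose 6 single-positive arrays all lay above the DP arrays, which 1.22% of all probes did. Only 1 probe of the array, not a Gimap probe, was called in this comparison (0.00189%), and 3.92% had an unadjusted p below 0.05, against 2 Gimap probes. The Gimap4 difference was called, with adjusted p-values of 0.0484, 0.0059 and 0.0165, under normexp background, with array weights, and without tg DP 4, IgM-positive 21 and tg B 23. Against DN3, single-positive cells were 1.72 ± 0.54 higher for this probe (adjusted p = 1), with 1.59 on slide 3. None was called there (0%), and 2.95% of all probes and 1 Gimap probe had an unadjusted p below 0.05.

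Gimap8, a long family member, showed the opposite order of SP8 and DP. Its levels were -3.10, -2.76 and -2.40 in DN3 cells, -1.86, -1.87 and -2.35 in DP cells, -1.40, -3.03 and -1.73 in SP4 cells, and -2.79, -2.45 and -3.98 in SP8 cells. All SP8 arrays lay below all DP arrays, and all DP arrays lay above all DN3 arrays, while the SP4 arrays spread over both. The difference between SP8 and DP was -1.05 ± 0.41 (95% interval -1.91 to -0.18, limma unadjusted p = 0.0206, adjusted p = 1), and 5.85% of all probes were lower in SP8 than in DP without overlap, while 5% were higher. SP4 was 1.02 ± 0.41 above SP8 (adjusted p = 0.896), with 1.51 on slide 3, 0.56 with normexp background and 0.57 without SP8 array 15. Leaving out single arrays moved the SP8 difference between -1.36 and -0.60.

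The other 6 genes differed little between thymocyte stages relative to their spread. Gimap3, whose product is found in the outer mitochondrial membrane, averaged 1.55 in DN3, 1.64 in DP, 1.90 in SP4 and 1.75 in SP8, and the interval of its SP4 difference from DP was -0.12 to 0.64. Gimap6, which is linked to autophagy, stayed between 1.93 and 2.16 in the same 4 groups. Gimap5, the gene mutated in lymphopenic BB rats, stayed between -3.72 and -3.42. Gimap1, needed for mature T and B cells in mice, stayed between -0.50 and -0.18. Gimap9 stayed between -0.38 and 0.03. For these 5 genes the DP group overlapped DN3, SP4 and SP8.

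Gimap7, whose human counterpart is a GTPase that acts as a dimer, was the member with the widest scatter inside groups. Its levels in DP cells were -1.97, -3.90 and -2.22, and in SP4 cells -3.68, -2.61 and -3.84. The pooled SD within groups was 0.94, against 0.18 for Gimap3. Its interval for SP4 minus DP, -2.22 to 0.86, left room for a difference of over 2 log2 units downwards, so a moderate change was not detectable.

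Between DP and DN3, the step of beta-selection, no Gimap probe had an unadjusted p below 0.05 in limma's test, and no probe of the array was called (0%), with 2.05% below 0.05 unadjusted. Gimap4 probe A_55_P1976387 averaged -2.11 ± 0.17 in DP cells and -1.17 ± 0.39 in DN3 cells, a difference of -0.94 (95% interval -2.24 to 0.36), with -0.97 on slide 2 (3 DP arrays and 1 DN3 array). Gimap8 averaged -2.03 ± 0.28 in DP cells and -2.75 ± 0.35 in DN3 cells, a difference of 0.72 (-0.14 to 1.59). Neither probe overlapped between the groups, and of all probes 6.56% were higher and 5.27% lower in DP without overlap.

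**Figure D3:**
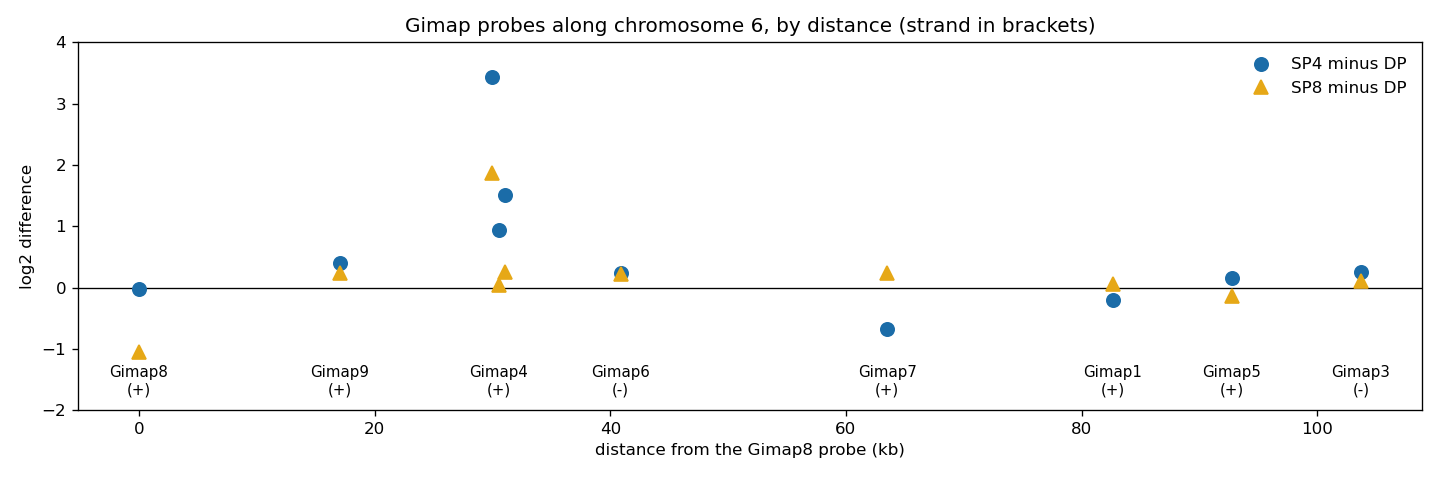
Log2 differences of SP4 (circles) and SP8 (triangles) from wt DP for the 10 Gimap probes, by distance from the Gimap8 probe along chromosome 6 in kb, with the strand under each gene. The 3 SP4 circles of Gimap4, at 0.94, 1.51 and 3.44, lie above those of all other genes, which run between -0.68 and 0.41.

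Of 7 genes beside the family on the chromosome (Repin1, Zfp775, Lrrc61, Rarres2, Tmem176a, Tmem176b and Aoc1), 2 were higher and 5 lower in SP4 than in DP on average, with a median difference of -0.08, as over all probes (-0.08), and none passed the test. The 10 Gimap probes had a median of 0.25 in that comparison, with 7 above 0 and 3 below.

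A list of 16 genes of thymocyte maturation and exit from the thymus gives the stage context. In SP4 against DP, 14 were higher and 2 lower on average, with a median of 0.30, and none passed limma's test. Klf2, a transcription factor of mature thymocytes, differed by 1.27 ± 0.70, and S1pr1, the receptor that guides cells out of the thymus, by 2.54 ± 1.29. S1pr1 was well above background on only 2 of 3 wt DP and 1 of 3 SP8 arrays, so the size of its difference is uncertain. Ccr7, a chemokine receptor, differed by 0.30 ± 0.35. In SP4 against SP8, all 16 were higher on average in SP4, with a median of 0.25 against -0.04 over all probes, and none passed. None of the 16 had an unadjusted p below 0.05 in limma's test between SP4 and SP8, so only the direction of their averages is given. Their part in the Gimap4 difference was not tested.

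In a list of reported partners of Gimap proteins in cell survival, no gene passed limma's test between SP4 and DP, or had an unadjusted p below 0.05. Whether they interact was not tested. Of 10 genes (the Bcl2 family members Bcl2, Bcl2l1, Mcl1, Bax, Bak1, Bad, Bcl2l11 and Bid, with the kinases Gsk3b and Prkcq), 2 were higher and 8 lower in SP4 than in DP on average, with a median of -0.27, against -0.08 over all probes. Bcl2, which blocks cell death, differed by -0.10 ± 0.43, and Mcl1, a related survival protein, by 0.44 ± 0.61. Of 11 measured GTPases of other immune families, 7 were higher and 4 lower, with a median of 0.05.

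In the transgenic thymus, DP cells overlapped wt DP cells at all 10 Gimap probes. The share of all probes that did so is not given here, so this overlap is not a trait of the family. Probe A_55_P1976387 of Gimap4 read -3.22, -2.15, -2.50 and -1.44 in tg DP cells, against -2.20, -2.23 and -1.92 in wt DP cells, and the wt arrays lay inside the tg range. Its difference was -0.21 (95% interval -1.43 to 1.01), with 0.09 on slide 2 (3 arrays each). Probe A_55_P2147831 read -1.45, -2.01, -2.29 and -2.31 in tg DP cells, against -1.81, -2.13 and -1.23 in wt DP cells, a difference of -0.29 (-1.05 to 0.47). No tg DP array reached the SP4 levels of either probe.

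None of the 10 probes had an unadjusted p below 0.05 between tg and wt DP in limma's test (the smallest was 0.194, for Gimap9), and no probe of the array was called (0%), with 3.21% below 0.05 unadjusted. Gimap9 differed by 0.51 (-0.28 to 1.30), Gimap1 by -0.39 (-1.57 to 0.79) and Gimap8 by -0.32 (-1.13 to 0.49). Gimap3 differed by 0.04 with the narrowest interval, -0.32 to 0.39, and Gimap7 by -0.05 with the widest, -1.48 to 1.39. The intervals stayed within 1 log2 unit of 0 for Gimap3, Gimap5 and Gimap6, and reached past it for the others.

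B cells of the transgenic thymus and of fetal liver, both IgM-negative, differed most at 1 of the 3 Gimap4 probes. Probe A_55_P2147831 read -1.73 and -2.80 in tg B cells, against -0.74, -0.77 and 0.27 in fetal liver cells. Both tg arrays lay below all 3 fetal liver arrays, and the difference was -1.85 ± 0.43 (95% interval -2.76 to -0.94, limma adjusted p = 0.0961). Probe A_55_P1976387 read -0.62 and -4.17 in tg B cells, against -1.02, -1.01 and -0.87, so that 1 tg array lay above the fetal liver arrays and the other far below them. Probe A_55_P1976376 read -0.10 and -2.14 in tg B cells, against -0.38, -0.05 and -0.58, and the groups overlapped (difference -0.78, 95% interval -1.92 to 0.36).

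Other members differed in both directions in that comparison, none past the test. Gimap1 read -0.85 and -2.91 in tg B cells, against -0.93, -0.74 and 0.57 in fetal liver cells, a difference of -1.51 ± 0.67 (limma adjusted p = 0.274). Gimap3 read 1.91 and 2.44, against 1.52, 1.76 and 1.55, a difference of 0.56 ± 0.20 (limma adjusted p = 0.197). Gimap5 read -2.80 and -2.06, against -3.28, -3.60 and -3.41, a difference of 0.998 ± 0.44 (limma adjusted p = 0.27). For Gimap3 and Gimap5, both tg arrays lay above all fetal liver arrays, while for Gimap1 the groups overlapped. Gimap8 read -3.47 and -3.17, both below -2.39, -2.50 and -3.00. Of all probes, 7.94% were higher and 25.4% lower in tg B cells without overlap, against 2 Gimap probes each way.

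Of all probes, 0.034% were called between tg B and fetal liver IgM-negative B cells and 16.5% had an unadjusted p below 0.05, against none and 4 of the 10 Gimap probes. All 5 arrays of this comparison lay on slide 4. The called probes were 6 higher and 12 lower, and 15 higher and 12 lower with median scaling. The median of all probes was -0.27, and 0.03 with median scaling, while the median of the Gimap probes was -0.56. A single array decided the calls: with tg B array 22 left out, so that array 23 alone stood for the group and was assumed to vary like the others, 5 Gimap probes passed (Gimap1, Gimap3 and all 3 of Gimap4), as did 15.1% of all probes. Without array 23, no Gimap probe and 0.0336% of all probes passed, and the differences of Gimap4 A_55_P2147831, Gimap1, Gimap3 and Gimap5 were -1.31, -0.49, 0.30 and 0.63. Array 23 is the one with the lowest signal.

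**Figure D4:**
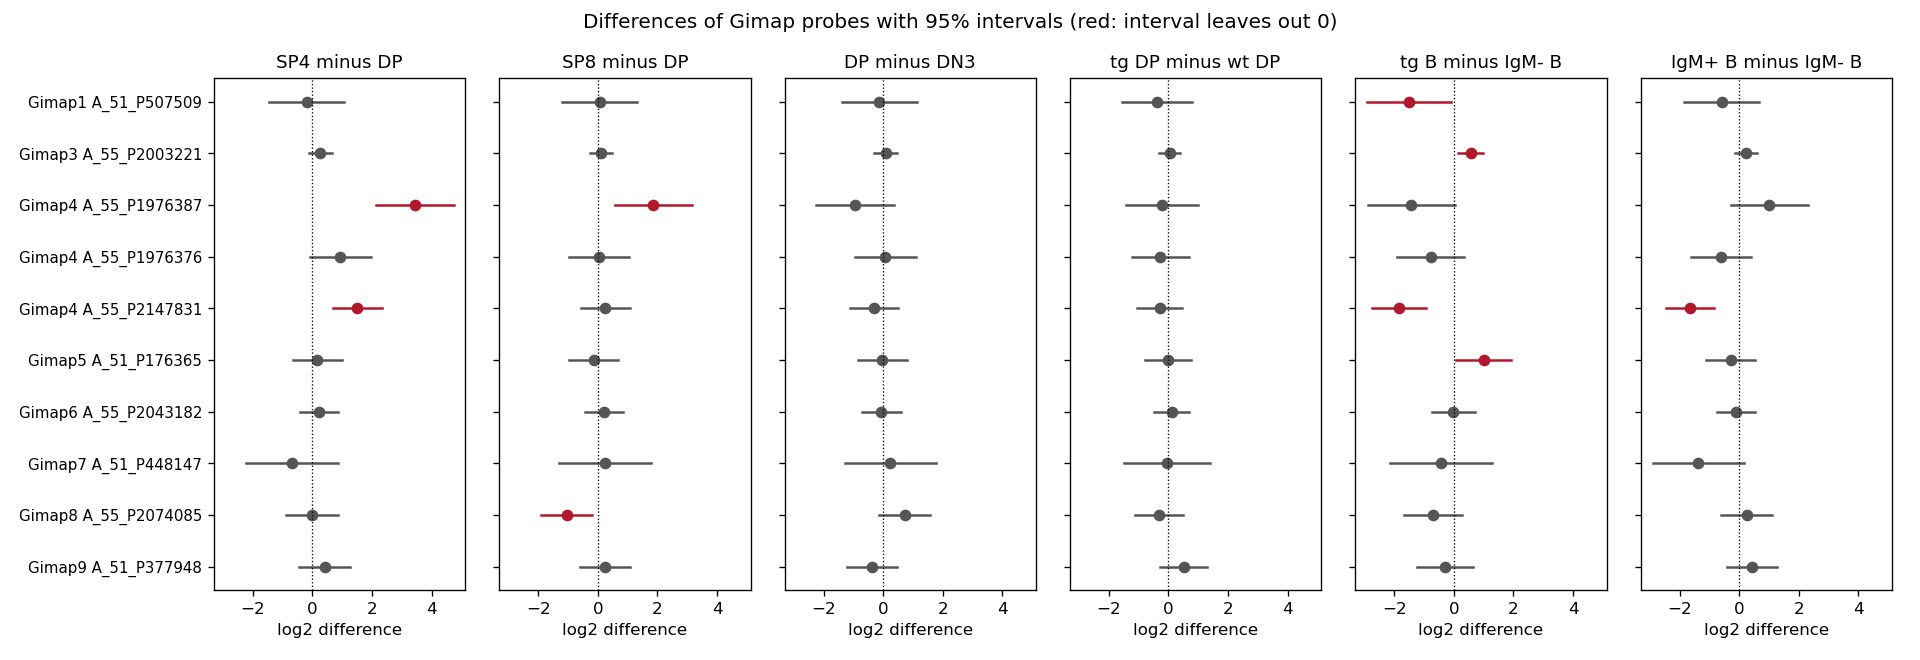
Log2 differences of the 10 Gimap probes in 6 comparisons (points) with 95% intervals of limma's fit (lines), red where the interval leaves out 0. No member is red between tg and wt DP, and the widest departures are 3.44 for Gimap4 A_55_P1976387 in SP4 against DP and -1.85 for Gimap4 A_55_P2147831 in tg B against IgM-negative fetal liver B cells.

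In fetal liver, the Gimap4 probes disagreed on the difference between IgM-positive B cells, which carry a surface receptor, and IgM-negative ones. Probe A_55_P1976387 read 0.21, -0.37 and 0.30 in IgM-positive cells, against -1.02, -1.01 and -0.87 in IgM-negative cells, so it was higher on all IgM-positive arrays. Probe A_55_P2147831 read -1.48, -2.44 and -2.31 in IgM-positive cells, against -0.74, -0.77 and 0.27 in IgM-negative cells, so it was lower on all of them. The differences were 1.01 ± 0.62 (limma adjusted p = 0.749) and -1.66 ± 0.39 (limma adjusted p = 0.339), with 0.93 and -1.96 on slide 4. The IgM-negative arrays are those that tg B cells were set against. Probe A_55_P1976376, between the others on the gene, differed by -0.61 (95% interval -1.63 to 0.41).

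Gimap7 was also lower on every IgM-positive array, at -3.53, -3.91 and -4.55, against -2.12, -2.37 and -3.38 in IgM-negative cells, a difference of -1.37 ± 0.73 (limma adjusted p = 0.705). Among all probes, 2.03% were higher and 12.1% lower in IgM-positive cells without overlap, against 1 and 2 Gimap probes. No probe was called (0%), and 7.41% of all probes and 1 Gimap probe had an unadjusted p below 0.05. The Gimap median was -0.20 and that of all probes -0.18.

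Within the transgenic thymus, tg DP cells were set against tg B cells, where 1.45% of all probes were called (511 higher and 257 lower, and 370 and 710 with median scaling) and no Gimap probe was. Of all probes, 17.6% were called without tg B array 22, 0.0654% without array 23 and none with array weights. Unadjusted, 19.4% of all probes and 3 Gimap probes had p below 0.05 in limma's test. Gimap5 averaged -3.60 ± 0.39 in tg DP cells (n = 4) and -2.43 ± 0.52 in tg B cells (n = 2), a difference of -1.17 ± 0.42 (adjusted p = 0.138), which became 0.31 with the slide as a fixed block. Gimap3 differed by -0.50 ± 0.19 (adjusted p = 0.166), by -0.76 without tg B array 22, by -0.23 without array 23, by -0.77 with median scaling and by -0.83 with the slide as a fixed block. Gimap8 averaged -2.34 ± 0.34 in tg DP cells and -3.32 ± 0.21 in tg B cells, a difference of 0.98 ± 0.44 (adjusted p = 0.228). In the survival list, 5 genes were higher and 5 lower on average, and only Bcl2l11, which promotes cell death, passed, higher in tg DP cells by 3.87 ± 0.87 (limma adjusted p = 0.0378), a call lost with array weights. Gimap3 and Gimap5 were lower and Gimap8 higher in tg DP without overlap, as were 6.94% and 13.3% of all probes. Leaving out tg B array 22 gave 3 called Gimap probes, and leaving out array 23 gave none.

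The tg effect in DP cells (tg DP minus wt DP) and that in B cells (tg B minus fetal liver IgM-negative B) were compared in 1 model. Both groups of the DP pair came from thymus, while the B pair differed in organ as well. A difference between these effects therefore cannot be told apart from the difference in organ. Gimap4 probe A_55_P2147831 had the smallest p, with an effect in DP cells 1.56 ± 0.56 above that in B cells (limma unadjusted p = 0.0127, adjusted p = 0.441). Of all probes, 0.00566% were called and 9.23% had an unadjusted p below 0.05, against none and 1 of the Gimap probes. The difference was 2.09 without tg B array 22, 1.02 without array 23, and 0.83 without tg DP 4, IgM-positive 21 and tg B 23. Without array 22, 2 Gimap probes passed, both of Gimap4, with 7.97% of all probes, and without array 23 no Gimap probe and 0.015% of all did.

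No Gimap probe separated wt thymocytes from fetal liver B cells on these arrays. The 12 wt thymocyte arrays against the 6 fetal liver B arrays gave differences between -0.10 for Gimap9 and 0.45 for Gimap7, all with 95% intervals that held 0. The smallest unadjusted p was 0.151, for Gimap6, which differed by 0.28 (-0.11 to 0.67). No Gimap probe was called or had an unadjusted p below 0.05, against 0.0491% and 12% of all probes. For Gimap4 the averages hid the order within each lineage. By probe A_55_P1976387 the groups ran, high to low, SP4, IgM-positive, SP8, IgM-negative, DN3, wt DP, tg DP and tg B. Ranges of neighbours in this order failed to overlap in 3 of 7 steps: SP4 over IgM-positive, SP8 over IgM-negative, and DN3 over wt DP. In the SP8 step the nearest arrays read -0.81 and -0.87. How often probes of the whole array do so was not counted, here or for the steps of other Gimap probes below.

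Across groups, this Gimap4 probe spanned 3.73 log2 units between its highest and lowest group mean, a range that 3.88% of kept probes exceeded, and the median probe spanned 1.09. Probe A_55_P2147831 spanned 2.05, with SP4 (-0.21 ± 0.23) and IgM-negative fetal liver B cells (-0.42 ± 0.59) at the top. Gimap1 spanned 1.70 and Gimap7 1.54. Gimap6 spanned 0.44 and Gimap3 0.62, the narrowest of the family. For Gimap1, Gimap3, Gimap6, Gimap7, Gimap8, Gimap9 and probe A_55_P1976376 of Gimap4, every step between neighbouring groups overlapped.

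The members did not vary together over the arrays. Between probes of different genes, the 42 correlations over 24 arrays ran between -0.50 and 0.36 with a median of -0.05. The 3 Gimap4 probes correlated at 0.55 to 0.58 with each other, and at 0.43 to 0.50 without tg B array 23. These values describe arrays that share groups, amplification and slides. A mean profile of the 8 genes was taken from each gene's brightest probe, which for Gimap4 is A_55_P1976376 and not A_55_P1976387. The profile was highest in SP4 cells (0.20 ± 0.25) and lowest in tg B cells (-0.22 ± 0.27), and single SP4 arrays reached down to -0.07. Of 10788 other genes, those most like this profile over the 24 arrays were Serpinb1a (Pearson r = 0.85), Ccdc33 (0.78), Creld1 (0.77), Cyth4 (0.75), Olfr67 (0.73) and Tsen15 (0.73). None of these 6 is in the lists above.

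Promoter windows, 250 bases before to 50 bases after the gene start, were available from RefSeq (build GRCm38.p6) for all 8 genes, 9 windows in all because Gimap8 has a pair. That of Gimap4, the member that differed most between stages, is shown on its plus strand, with matches to the searched motifs in capitals.

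Gimap4 promoter, chr6:48684328-48684627 of GRCm38.p6: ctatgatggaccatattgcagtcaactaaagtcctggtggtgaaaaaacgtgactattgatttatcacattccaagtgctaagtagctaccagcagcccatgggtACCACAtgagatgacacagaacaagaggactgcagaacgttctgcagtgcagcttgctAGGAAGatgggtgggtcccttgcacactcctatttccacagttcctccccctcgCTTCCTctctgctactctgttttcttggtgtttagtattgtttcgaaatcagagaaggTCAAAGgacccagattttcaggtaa

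The capitals are, in order, a Runx motif (TGTGGT, on the other strand), an Ets motif (AGGAAG) on either strand and a Tcf7/Lef1 motif (CTTTGA, on the other strand), and they do not overlap. The Runx motif was in 3 of the 9 Gimap windows (Gimap1, Gimap4 and Gimap7) and in 16.8% of 32851 windows of the RefSeq table, both strands counted. AGGAAG was in 7 of 9 Gimap windows, all but that of Gimap6 and 1 of Gimap8, and in 35.4% of all windows. CTTTGA was in 2 of 9 (Gimap4 and Gimap7) and in 16% of all. Gimap4 and Gimap7 thus held the same 3 motifs. The second Ets motif (CCGGAA), an E-box (CAGCTG) and the Gata motif (AGATAA) were in no Gimap window, which says only that these letters are not in these windows. The other E-box (CAGGTG) was in 1 window, that of Gimap9, the Ikaros motif (TGGGAA) in that of Gimap3, the TATA box (TATAAA) in that of Gimap6, and the GC box (GGGCGG) in those of Gimap7 and Gimap9. Their shares of all windows were 20.2%, 25.6%, 13.6% and 35.7%.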

How the data were processed

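Spot intensities were deposited as Feature Extraction 10.7.3.1 gave them (scanner G2505C, design 028005, annotation build mm9), per the file headers, including a signal from which that program had subtracted background. A table of the authors' processed log2 values was deposited too, every column with a median of 7.93. Its columns rank probes as the arrays do (lowest Spearman rho 0.99997), so genes were not centred. Of the spots, controls (3671 of 62976) were left out, 248 non-uniform values set to missing (none at a Gimap probe) and spots of 1 probe averaged. From each array's log2 processed signals, their 75th percentile was subtracted. A probe was kept where all arrays of some group had it well above background, 52987 of 55681 (95.2%), all 10 Gimap probes among them. The test was limma's (version 3.58.1, R 4.3.3: lmFit, eBayes, 8 group means, 24 arrays, no covariate), with Benjamini-Hochberg adjustment over all kept probes and a threshold of 0.05. Lists use each gene's brightest probe. A result that the rule for named genes selects is not reported here. All 10 Gimap probes are named, and genes like the family profile are the 6 highest correlations among genes with an SD of at least 0.5. The Gimap genes, the lists and the comparisons were chosen with earlier results of these data known. On simulated data for single-positive against DP cells, 14%, 53% and 89.5% of 200 probes with log2 differences of 1, 2 and 4 were called, among 52856. The simulated noise was normal and independent between arrays, with no slide effect, so these shares need not hold for the real arrays. The number of arrays limits the precision. Alternatives were median and quantile scaling, normexp background (offset 50), the authors' values, filters, slide blocks and array weights. Others were averaging arrays that share a title number, a trended robust spread, 1 probe per gene (the brightest), only the groups compared, and leaving out arrays.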

Additional observations from a re-analysis of the deposited data

How the results depend on the processing

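The 19 Gimap differences with an unadjusted p below 0.05 were followed over 380 setting values: 365 kept their direction and were not called, 14 were called in the same direction, and 1 turned round. The number of Gimap probes called, 0 as reported, became 1 for single-positive cells against DP with normexp background, with array weights and without tg DP 4, IgM-positive 21 and tg B 23 (the last chosen after seeing the data). It became 1 for SP4 against DP with median scaling, quantile scaling, normexp background, the authors' log2 values, array weights, and without those 3 arrays. The probe was Gimap4 A_55_P1976387 each time. Leaving out single arrays gave 0 to 5 called probes for tg B against IgM-negative fetal liver B cells, 0 to 3 for tg DP against tg B cells and 0 to 2 for the difference of the tg effects, each maximum without tg B 22. Over all probes, SP4 against DP had 0 calls as reported, 7 higher and 1 lower with median scaling, and 10 higher and 1 lower with quantile scaling. The Gimap5 difference between tg DP and tg B cells was 0.31 with the slide as a fixed block (adjusted p = 0.875), and the cause was not tested. For SP4 against DP, A_55_P1976387 had an adjusted p of 0.148 with the slide as a random block and 0.643 after averaging arrays of 1 title number, and 3.16 to 3.69 as its difference without single arrays. No paired analysis was possible because the groups share no replicate numbers.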

Other observations

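Another pair of array probes lie inside the Gimap cluster and carry other names. The probe of A130009E19Rik, at position 48683278 of chromosome 6 in mm9, was well above background on 3 of 3 wt DP arrays (-3.95 ± 0.25, SD, n = 3), 1 of 3 DN3 arrays, 1 of 3 SP8 arrays and on no SP4 array, so that no size of a difference between SP4 and DP is given. That comparison did not pass limma's test for this probe (adjusted p = 0.579). The probe annotated ENSMUST00000155906, at position 48688531, averaged -3.33 ± 0.18 in IgM-positive and -4.16 ± 0.14 in IgM-negative fetal liver B cells (SD, n = 3 each, limma adjusted p = 0.808). Both were chosen after their values were seen.

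The genes most like Gimap4 probe A_55_P1976387 over the 24 arrays, also looked up after its values were seen, were Gm16519 (Pearson r = 0.84), Tmsb10 (0.78), Gm5481 (0.78), Msn (0.77), Rps26 (0.76) and Rps21 (0.75). Without tg B 23 these were 0.80, 0.70, 0.70, 0.78, 0.67 and 0.66.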
